A study of Arabidopsis thaliana with 28 samples.

Results

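The tubulin genes described here are the 7 genes of Arabidopsis thaliana whose probe sets carry a single gene name that begins with TUA or TUB followed by a digit. They are the alpha-tubulin genes TUA1 (AT1G64740) and TUA6 (AT4G14960) and the beta-tubulin genes TUB1 (AT1G75780), TUB5 (AT1G20010), TUB6 (AT5G12250), TUB7 (AT2G29550) and TUB9 (AT4G20890), 7 of 13513 probe sets that name 1 gene. A further probe set names several tubulin genes and was not used, and the other alpha- and beta-tubulin loci, of 15 in the family list used here, were not analysed here.

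The tubulin transcripts were read on 28 oligonucleotide arrays, 2 for each of 14 groups, with RNA from the whole above-ground part of Col-0 seedlings grown for 12 days on sterile agar without sucrose. Wild type held for 24 h at 4°C and about 30 µmol of light (WT cold) was compared with wild type at 22°C and about 100 µmol (WT warm). A lower temperature thus came together with dimmer light. The array titles call these groups cold and warm, and neither titles nor source names state that they came from the same experiment. All remaining groups were kept at 22°C in constant light. They were 11 lines that overexpress a transcription factor, namely MYB44, MYB73, HSFC1, ZAT10, CZF1, a factor labelled ZF (AT4G29190), CRF3, CRF2, RAV1, ERF5 or DEAR1, and a further wild type labelled as the control of the lines (WT control). The array titles give MYB4 and MYB7 where the source names give MYB44 and MYB73, and the source names were followed. The promoter of the transgenes and the number of independent transformants are not given in the sources used here. STZ, the probe set of ZAT10, read 12.95 and 12.92 in the ZAT10 line, against 4.08 and 4.07 in WT control.

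Alpha- and beta-tubulin pair as dimers that assemble end to end into microtubules. In growing plant cells the microtubules under the plasma membrane guide cellulose synthase and so the direction in which the wall is laid down, and microtubules also build the spindle and the division plate. Microtubules are labile in the cold, and each tubulin is encoded by several genes with different tissue patterns: TUA1 is best known from pollen, and TUB1 is a gene with strong root transcript levels that light lowers in seedlings.

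Values are log2 signals as the authors deposited them, on a scale from a floor of 2.13 to 14.94, and the tubulin genes lay between 4.56 and 11.75, above that floor on every array. A difference of 1 is a doubling of signal. Changes are given as log2 differences ± SE from a limma fit of all 28 arrays, and a gene is called changed at a Benjamini-Hochberg adjusted p under 0.05 over 15916 probe sets, among which all 7 tubulin genes were tested. Nothing beyond the word biological says that replicates came from separate cultures, so the p-values measure the spread between these arrays.

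Both CRF3 arrays have to be read apart from the rest, since they differed from each other by a root mean square of 0.875 over all probe sets, against 0.228 to 0.469 between the replicates of the other 13 groups. All 7 tubulin genes were lower in CRF3 replicate 2 than in CRF3 replicate 1. In the fit the spread is pooled over groups, and without the CRF3 arrays the within-group SD of TUB1 was 0.184, against 0.411 with them. The line results are therefore given with and without those arrays. The WT warm, WT cold and CZF1 arrays had medians over all probe sets of 5.77 to 5.84, against 5.33 to 5.48 in the other 11 groups. As a result the median probe set stood 0.42 higher in WT warm than in WT control, and comparisons across those 2 sets of groups carry that shift.

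None of the 7 leaf mesophyll markers listed was named on the array, so the tissue label was read from LHCB4.2, a light-harvesting antenna gene chosen after its values were seen, which had signals of 10.32 to 13.33. Of the 7 root markers 3 were named (AT5G06630, EXPA7 and EXPA18), with single values from 3.12 to 9.63. The 2 pollen markers named, the pollen actin gene ACT12 and AT1G66210, stayed between 2.13 and 3.10 on all arrays. The listed guard cell and xylem markers were not named here. In tissue of many cell types, fewer cells of a type and less RNA per cell cannot be told apart.

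**Figure D1:**
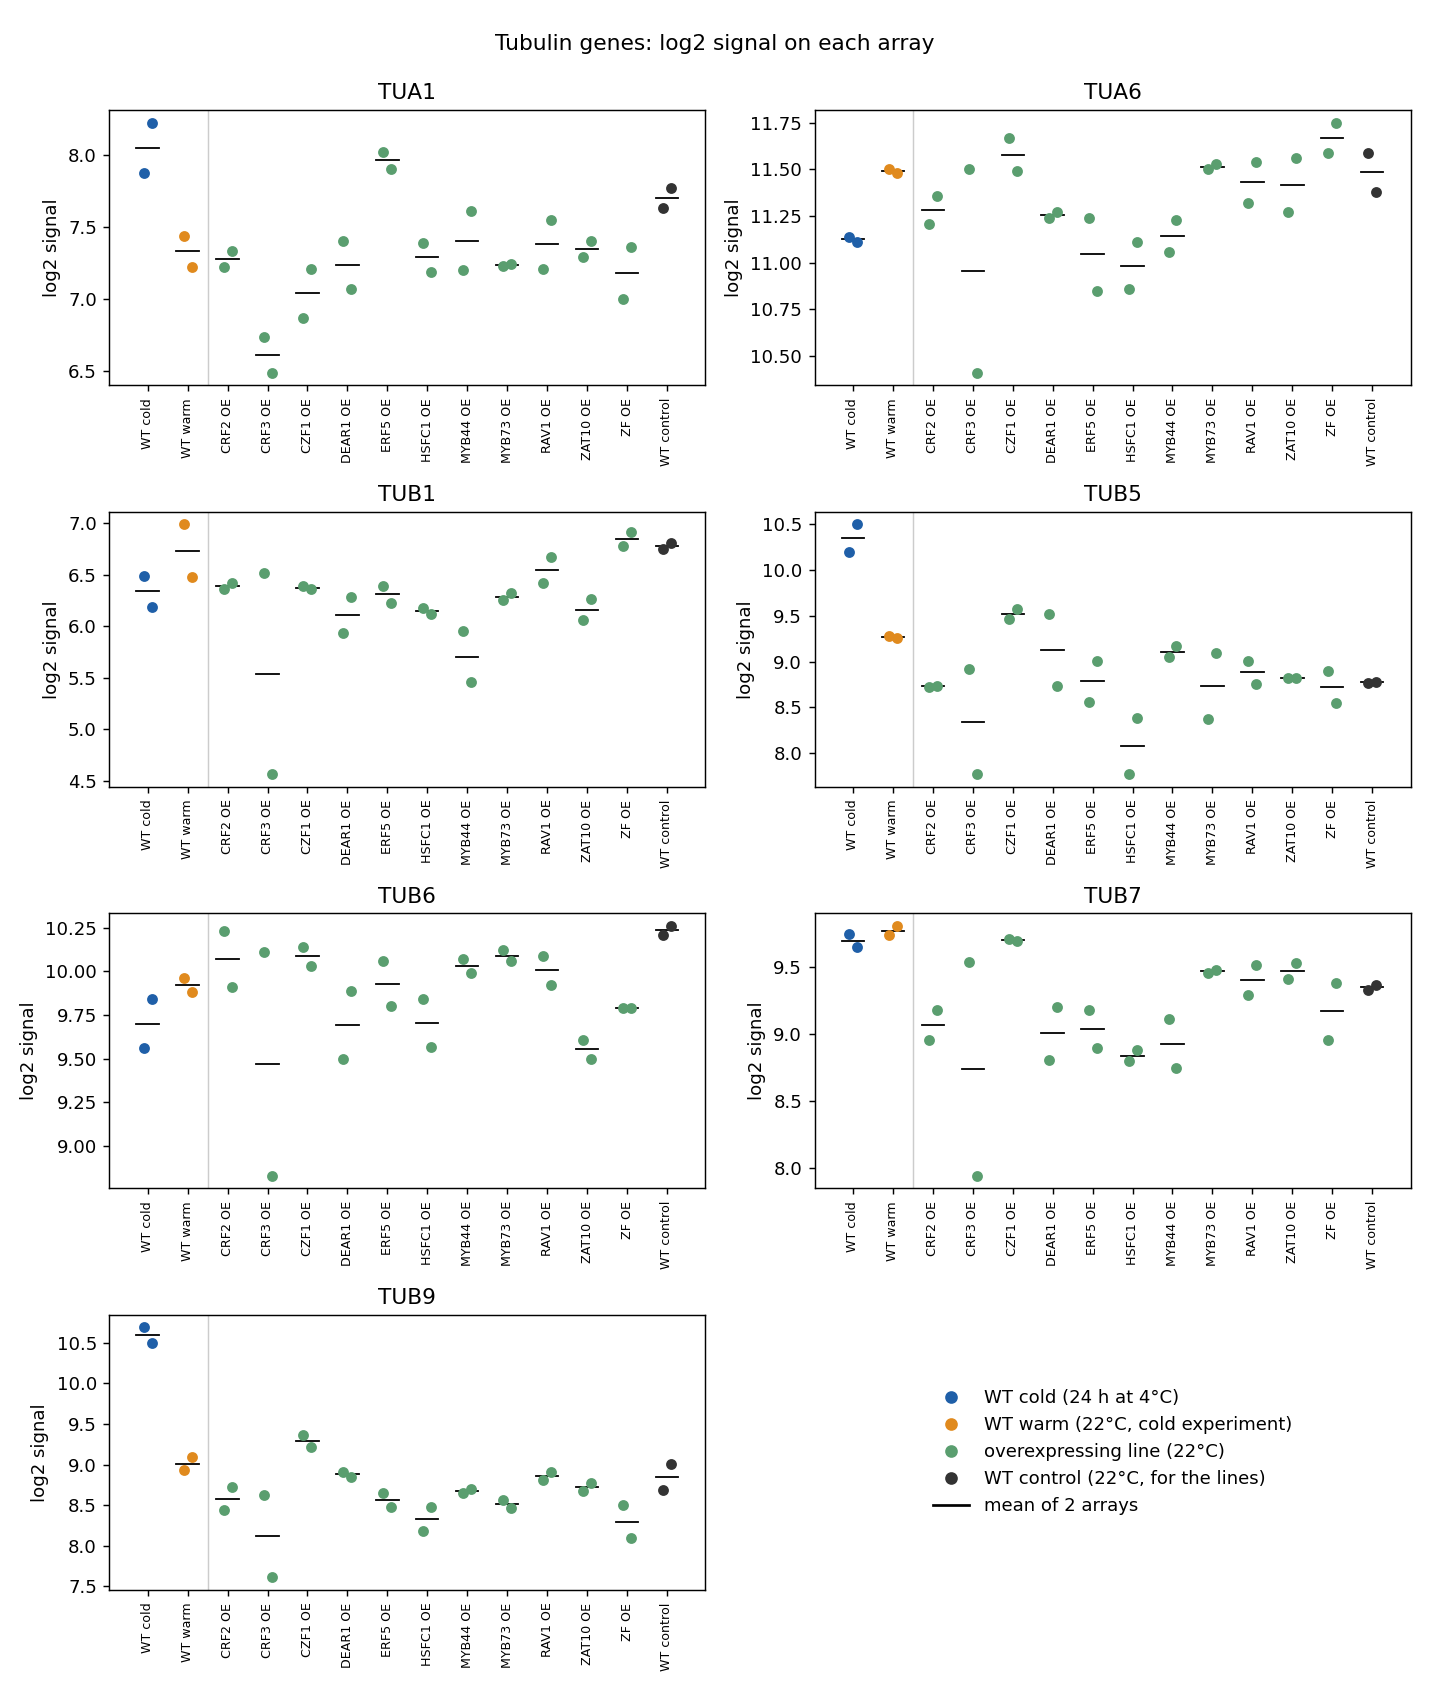
Log2 signal of each tubulin gene on each array (points) with the mean of the 2 arrays of a group (line), one panel per gene with its own vertical scale. TUB9 and TUB5 stand highest in WT cold, at 10.50 to 10.69 and 10.20 to 10.50, and CRF3 replicate 2 is the lowest array for TUA1, TUA6, TUB1, TUB6, TUB7 and TUB9.

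The first comparison asked which tubulin transcripts changed in wild type during 24 h at 4°C. TUB9 rose 3-fold, TUB5 rose 2.11-fold and TUA1 rose 1.64-fold, while TUA6, TUB1, TUB6 and TUB7 were lower by mean and did not pass the test. The 3 genes called were all higher, in a comparison in which 27.2% of all probe sets passed in either direction and 14.1% passed as higher. A count of 3 among 7 genes is not far above the 27.2%. Calls in either direction were counted, so the 27.2% is the like share and the 14.1% is given for description only. With 7 genes the difference from the 27.2% rests on few calls and was not tested. In all 3 both cold arrays lay above both warm arrays, as for 33% of all probe sets. The median change was -0.08 over the 7 genes and -0.03 over all probe sets tested.

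TUB9, a beta-tubulin gene, read 10.69 and 10.50 in WT cold, against 8.93 and 9.09 in WT warm. Both cold arrays lay far above both warm arrays and above every other array of the series. The change was 1.59 ± 0.24 (limma adjusted p = 7.86e-05), and 472 of the 15916 probe sets rose by as much or more.

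TUB5, also a beta-tubulin gene, read 10.20 and 10.50 in WT cold, against 9.28 and 9.26 in WT warm. The groups did not overlap, and both cold arrays were again the highest of the series. The change was 1.08 ± 0.32 (limma adjusted p = 0.0177), and it passed the threshold without WT cold replicate 1 but not without WT cold replicate 2 or either WT warm array (adjusted p 0.0738 to 0.127).

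TUA1, the alpha-tubulin gene known from pollen, read 7.87 and 8.22 in WT cold, against 7.44 and 7.22 in WT warm. The cold arrays were higher than both warm arrays, but those of the ERF5 line, at 8.02 and 7.90, lay between them. The change was 0.72 ± 0.20 (limma adjusted p = 0.0122), and the call was lost without WT warm replicate 2 or WT cold replicate 2 (adjusted p = 0.104 and 0.143). The pollen marker ACT12 was at 2.40, its lowest value, on all 4 arrays of this comparison.

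TUA6, the other alpha-tubulin gene, read 11.14 and 11.11 in WT cold, against 11.50 and 11.48 in WT warm. Both cold arrays were below both warm arrays, as they were for 36.6% of all probe sets. The difference of -0.37 ± 0.24 did not pass (limma adjusted p = 0.293, 95% interval -0.88 to 0.15).

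TUB1 read 6.49 and 6.19 in WT cold, against 6.99 and 6.48 in WT warm, and the arrays overlapped (-0.40 ± 0.38, limma adjusted p = 0.477). TUB6 read 9.56 and 9.84 in WT cold, against 9.96 and 9.88 in WT warm, again with both cold arrays lower, and a difference of -0.22 ± 0.27 (limma adjusted p = 0.596). TUB7 read 9.75 and 9.65 in WT cold, against 9.74 and 9.81 in WT warm, with overlapping arrays and a difference of -0.08 ± 0.32 (limma adjusted p = 0.9). The 95% intervals of these 3 genes, -1.18 to 0.39, -0.79 to 0.35 and -0.74 to 0.59, still hold changes as large as that of TUA1 in the downward direction. Whether the response of TUB9, TUB5 and TUA1 differed from that of the other genes was not tested.

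**Figure D2:**
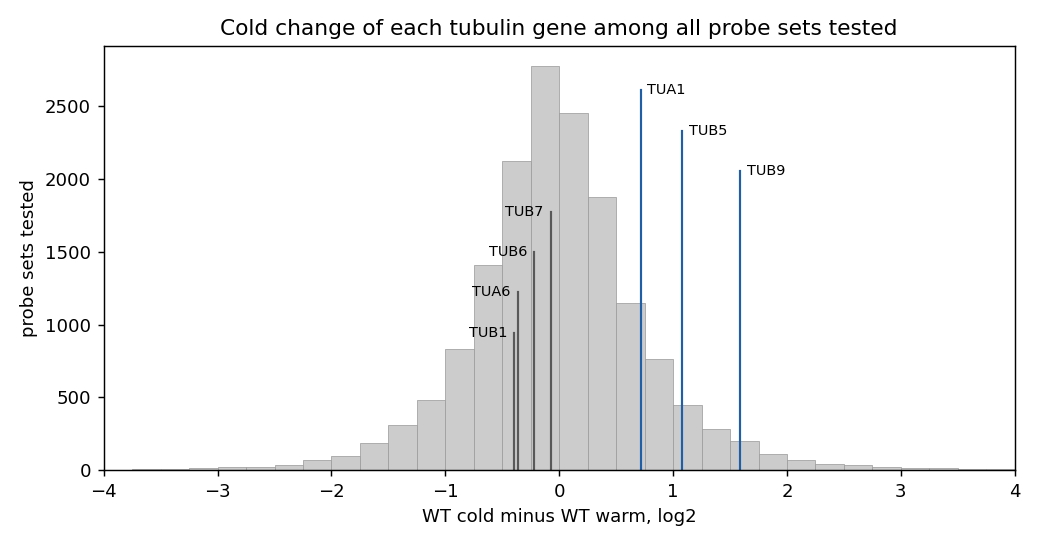
Histogram of the change in the cold (WT cold minus WT warm, log2) over all 15916 probe sets tested, with the 7 tubulin genes marked by vertical lines, blue where the adjusted p was under 0.05. TUB9 at 1.59, TUB5 at 1.08 and TUA1 at 0.72 lie in the upper part, and the other 4 genes lie between -0.40 and -0.08. The height of a line has no meaning.

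The wild type at 22°C was measured in 2 groups, and the choice of group mattered for TUA1. With WT control in place of WT warm, WT cold was higher by 1.75 ± 0.24 in TUB9 (limma adjusted p = 1.16e-05) and by 1.58 ± 0.32 in TUB5 (limma adjusted p = 0.000588). TUA1 then differed by 0.35 ± 0.20 and did not pass (limma adjusted p = 0.169), in a comparison in which 47% of all probe sets did. The comparison with WT control crosses the 2 sets of groups with unlike array medians. With all 4 WT arrays at 22°C the changes were 1.67 ± 0.21 in TUB9, 1.33 ± 0.29 in TUB5 and 0.53 ± 0.19 in TUA1, all past the threshold (limma adjusted p = 7e-06, 0.00177 and 0.0415), where 31.9% of all probe sets passed.

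**Figure D3:**
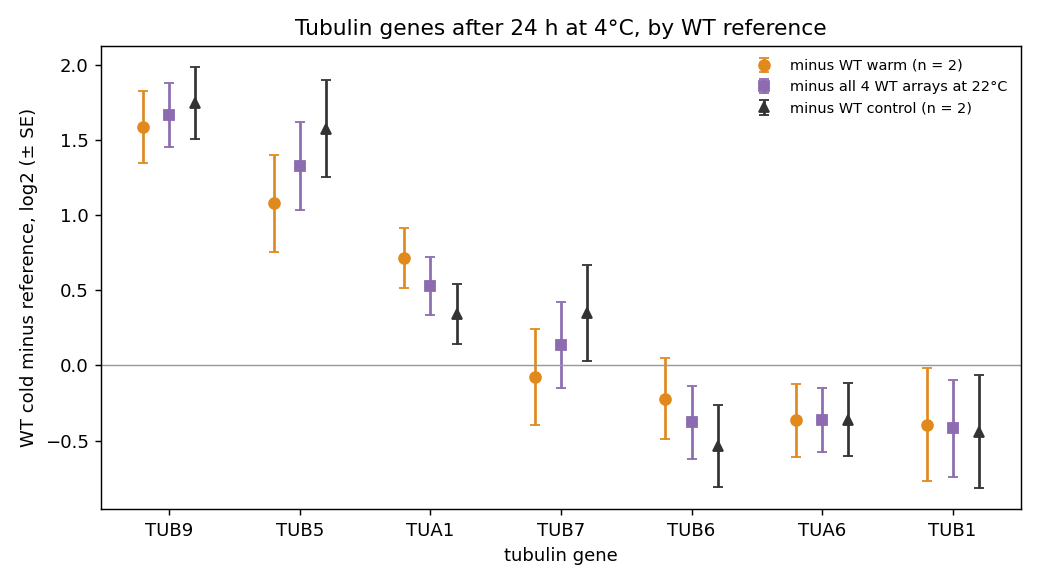
Difference of WT cold from WT warm (circles), from all 4 WT arrays at 22°C (squares) and from WT control (triangles) for each tubulin gene, in log2 with the SE of the limma fit. TUB9 lies between 1.59 and 1.75 and TUB5 between 1.08 and 1.58 whichever wild type is used, and TUA1 between 0.35 and 0.72.

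Between WT warm and WT control, where both are untreated wild type, 0 of 7 tubulin genes passed by limma, against 33.9% of all probe sets. At an unadjusted p under 0.05 the count was also 0. The largest difference was in TUB5, with 9.28 and 9.26 in WT warm against 8.77 and 8.78 in WT control (0.50 ± 0.32, limma adjusted p = 0.24). TUA1 stood the other way, at -0.37 ± 0.20 (limma adjusted p = 0.157), although the median probe set was 0.42 higher in WT warm. After quantile normalization, which removes that shift, TUA1 was 0.86 lower in WT warm and passed (limma adjusted p = 0.00846), and TUB5 was at 0.00.

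The GAPDH control probe sets, whose 3' minus 5' signal grows as RNA degrades, gave 1.30 and 1.23 in WT cold, against 1.11 and 1.83 in WT warm. The same measure of the actin control was 4.89 and 5.15 in WT cold, against 4.97 and 5.67 in WT warm. For the ubiquitin control it was 1.16 and 1.31 in WT cold, against 1.08 and 1.33 in WT warm. The summed signal of the 3 root markers was 6.84 to 6.89 on the log2 scale in WT cold, against 7.28 to 7.42 in WT warm, and 0 of the 3 passed in the cold comparison. The markers did not move together. AT5G06630, the strongest, was lower in WT cold by mean (-0.95), while EXPA7 (0.55) and EXPA18 (0.435) were higher. The part of the control signals and root markers in the tubulin changes was not tested.

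For the lines, the question was whether overexpression of any of the 11 factors changed tubulin transcripts relative to WT control. Of 77 pairs of tubulin gene and line, 3 passed, TUA1 and TUB1 in CRF3 and TUA1 in CZF1, all lower. Over all probe sets 6.41% of such pairs passed, so the share among tubulin genes was below the background. With either WT control array left out 0 pairs passed by limma, and of the 3 calls TUA1 in CRF3 then had adjusted p = 0.0717 and 0.0706. All 11 comparisons share those 2 control arrays, so their values are not independent of each other.

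TUB1 read 6.52 and 4.56 in CRF3, against 6.75 and 6.81 in WT control. Both CRF3 arrays were below both control arrays and replicate 2 was the lowest TUB1 array of the series. The change of -1.24 ± 0.38 passed narrowly (limma adjusted p = 0.0478), and without replicate 2 it was -0.26 (limma adjusted p = 0.81).

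TUA1 read 6.74 and 6.49 in CRF3, against 7.63 and 7.77 in WT control. Here both CRF3 arrays were low, and they were the 2 lowest TUA1 values of all 28 arrays. The change was -1.09 ± 0.20 (limma adjusted p = 0.00809). Without CRF3 replicate 2 it was -0.96 and did not pass (limma adjusted p = 0.13), and with only the CRF3 and control arrays in the fit neither gene passed (limma adjusted p = 0.621 for both). In this line 8.6% of all probe sets passed, and 2.81% passed as lower.

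The other 5 genes in CRF3 had changes from -0.77 in TUB6 to -0.43 in TUB5 and did not pass. Each was lower in replicate 2 than in replicate 1, by 1.01 in TUB9 to 1.6 in TUB7. TUB7 for example read 9.54 and 7.94 in CRF3, against 9.33 and 9.37 in WT control, one array above and the other far below both. LHCB4.2 moved likewise, with 12.77 and 10.32 in CRF3. The 3' minus 5' GAPDH signal was 2.04 and 1.81 in CRF3, against 0.75 and 0.91 in WT control. The same measure of the ubiquitin control was also higher in CRF3 than in WT control, at 1.41 and 1.74. For the actin control, CRF3 (5.41 and 5.36) overlapped with WT control. The part of these control signals in the CRF3 values was not tested.

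In CZF1, TUA1 read 6.87 and 7.21, against 7.63 and 7.77 in WT control, with no overlap. The change was -0.66 ± 0.20 (limma adjusted p = 0.0164), in a comparison in which 36.3% of all probe sets passed in either direction, 3.85% of all probe sets passed as lower, and the median probe set was 0.43 higher in CZF1. It was lost without either control array or CZF1 replicate 1 (limma adjusted p 0.0518 to 0.161) and when set against the 4 pooled WT arrays grown at 22°C (limma adjusted p = 0.182). After quantile normalization the change of TUA1 in CZF1 was -1.15 (limma adjusted p = 0.000774). Against WT warm, whose array median was close to that of CZF1, TUA1 differed by -0.29 ± 0.20 and 0 of 7 tubulin genes passed (limma adjusted p 0.69 to 0.993), where 1.04% of all probe sets did. At an unadjusted p under 0.05 the count was 0 as well. Root markers were also low in CZF1, with 2 of 3 past the threshold as lower than WT control and a summed signal of 6.49 to 7.33, against 8.23 to 8.47 in WT control. The 3' minus 5' GAPDH signal was 1.42 and 1.44 in CZF1, against 0.75 and 0.91 in WT control. The same measure of the actin control went the other way, with both CZF1 arrays (4.76 and 5.11) below both WT control arrays. For the ubiquitin control, CZF1 (1.16 and 1.35) overlapped with WT control. The part of the root markers and of these control signals in the TUA1 value was not tested.

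TUB5 and TUB9 stood higher in CZF1 than in WT control. TUB5 read 9.47 and 9.58 in CZF1, against 8.77 and 8.78 in WT control, and TUB9 read 9.36 and 9.22 in CZF1, against 8.69 and 9.01 in WT control. The differences of 0.75 ± 0.32 and 0.44 ± 0.24 did not pass with all arrays (limma adjusted p = 0.0752 and 0.155). The median probe set was 0.43 higher in CZF1, close to the difference of TUB9 and below that of TUB5. After quantile normalization the differences of TUB5 and TUB9 were 0.24 and -0.07.

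**Figure D4:**
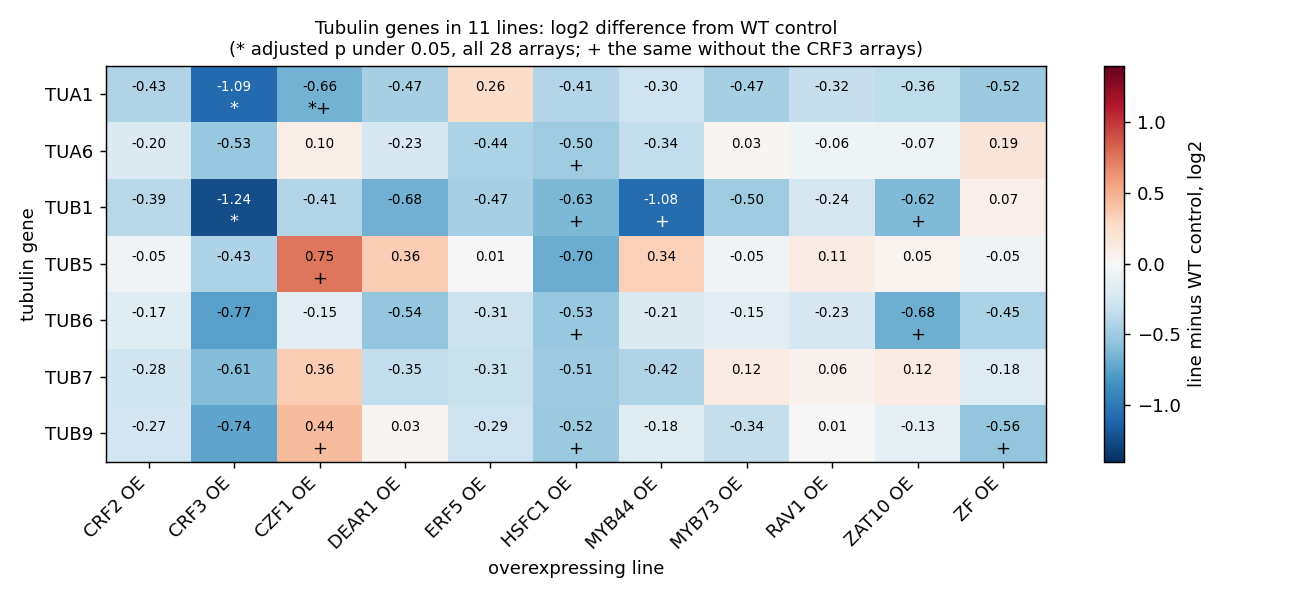
Log2 difference of each line from WT control for the 7 tubulin genes (rows) in the 11 lines (columns), blue for lower and red for higher. An asterisk marks an adjusted p under 0.05 with all 28 arrays, and a plus sign marks the same in the fit without the CRF3 arrays. The strongest blue cells are TUB1 in CRF3 (-1.24), TUA1 in CRF3 (-1.09) and TUB1 in MYB44 (-1.08).

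With the CRF3 arrays out of the fit, 11 pairs of tubulin gene and line passed, with 10.2% of all such pairs passing as background. The largest was TUB1 in MYB44, a line overexpressing an R2R3 MYB factor. TUB1 read 5.95 and 5.46 in MYB44, against 6.75 and 6.81 in WT control. Both MYB44 arrays were below every array of the series other than CRF3 replicate 2 and DEAR1 replicate 1, which at 5.93 lay between them. The change of -1.08 ± 0.38 did not pass with all 28 arrays (limma adjusted p = 0.167) and was -1.08 ± 0.19 without the CRF3 arrays (limma adjusted p = 0.00332), where 6.18% of all probe sets passed in this line, against 1.69% with all arrays. In that fit it also passed without either WT control array and without MYB44 replicate 1 (limma adjusted p 0.00294 to 0.0394) but not without MYB44 replicate 2 (limma adjusted p = 0.051).

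The summed root marker signal was 6.24 to 7.11 in MYB44, against 8.23 to 8.47 in WT control. The ZF line had a summed root marker signal of 6.67 to 6.95 and TUB1 values of 6.78 and 6.92, which overlapped with those of WT control. In HSFC1, ZAT10 and CZF1 the sum was also below that of WT control, and TUB1 differed by -0.63, -0.62 and -0.405. In ERF5 and CRF2 the sum was above it, and TUB1 differed by -0.47 and -0.39. With all arrays none of the 3 root markers passed in MYB44, and neither did TUB1. All 3 markers were lower by mean there, AT5G06630 by -1.995, EXPA18 by -1.07 and EXPA7 by -0.645 (limma adjusted p = 0.0538, 0.221 and 0.615). Their results in the fit without the CRF3 arrays are not given here. The 3' minus 5' GAPDH signal was 1.43 and 1.31 in MYB44, against 0.75 and 0.91 in WT control. The same measure of the ubiquitin control was also higher in MYB44 than in WT control, at 1.51 and 1.43. For the actin control, MYB44 (5.29 and 5.72) overlapped with WT control. The part of the root markers and of these control signals in the TUB1 value was not tested.

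In HSFC1, a line overexpressing a class C heat stress factor, all 7 tubulin genes had lower means than WT control, where 52.6% of all probe sets did. In CRF3 and CRF2, which share the control arrays, all 7 means were lower too, with a median of -0.74 in CRF3, against 0.00 over all probe sets, and of -0.27 in CRF2, against 0.02 over all probe sets. In HSFC1 the median change was -0.52 over the 7 genes and -0.03 over all probe sets. None passed with all arrays (limma adjusted p 0.181 to 0.353), where 11.8% of all probe sets passed. At an unadjusted p under 0.05 there were 2, TUB5 and TUB9. Without the CRF3 arrays TUB1 (-0.63 ± 0.19), TUB6 (-0.53 ± 0.17), TUB9 (-0.52 ± 0.17) and TUA6 (-0.50 ± 0.16) passed (limma adjusted p 0.0257 to 0.038), with a background of 19.7%.

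TUA6 read 10.86 and 11.11 in HSFC1, against 11.59 and 11.38 in WT control. TUB5 read 7.77 and 8.38 in HSFC1, against 8.77 and 8.78 in WT control, the lowest mean of TUB5 in any group. TUB7 read 8.80 and 8.88 in HSFC1, against 9.33 and 9.37 in WT control. In all 7 genes both HSFC1 arrays were below both control arrays, as for 31.2% of all probe sets. HSFC1 also had a higher 3' minus 5' GAPDH signal, 1.63 and 1.78, against 0.75 and 0.91 in WT control, and a lower summed root marker signal, 7.47 to 7.82, against 8.23 to 8.47 in WT control. The 3' minus 5' signals of actin (5.54 and 5.59) and ubiquitin (1.66 and 1.71) were also higher in HSFC1 than in WT control. The part of the control signals and root markers in the tubulin values of HSFC1 was not tested.

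In ZAT10, TUB6 read 9.61 and 9.50, against 10.21 and 10.26 in WT control. Both ZAT10 arrays were well below both control arrays, and the change was -0.68 ± 0.27 with all arrays (limma adjusted p = 0.168) and -0.68 ± 0.17 without the CRF3 arrays (limma adjusted p = 0.0141). TUB1 in this line read 6.06 and 6.26, against 6.75 and 6.81 in WT control, and passed once the CRF3 arrays were left out (-0.62 ± 0.19, limma adjusted p = 0.0451). The summed root marker signal was 7.17 to 7.81 in ZAT10, against 8.23 to 8.47 in WT control. None of the 3 root markers passed in ZAT10 (limma), with AT5G06630 at -1.065, EXPA18 at -0.57 and EXPA7 at -0.02. The part of the root markers in these tubulin values was not tested. In ZF, TUB9 read 8.50 and 8.09, against 8.69 and 9.01 in WT control (-0.56 ± 0.17 without the CRF3 arrays, limma adjusted p = 0.0354). The remaining pairs called in that fit were the 3 in CZF1. With all arrays none of the 7 passed in ZAT10 or ZF, where 4.66% and 7.12% of all probe sets did, and at an unadjusted p under 0.05 there were 1 and 2. Without CRF3 the backgrounds were 10.9% in ZAT10, 14.9% in ZF and 46.6% in CZF1.

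In CRF2, DEAR1, ERF5, MYB73 and RAV1 none of the 7 tubulin genes passed in either fit. The share of all probe sets that passed with all arrays was 0 in CRF2 and MYB73, 0.251% in DEAR1, 0.0817% in ERF5 and 0.00628% in RAV1, so these lines had few calls of any kind. Without the CRF3 arrays it was 0.0883% in CRF2, 2.46% in DEAR1, 1.22% in ERF5, 0 in MYB73 and 0.0378% in RAV1. At an unadjusted p under 0.05, with all arrays, TUA1 alone passed in CRF2, DEAR1 and MYB73 and no tubulin gene did in ERF5 or RAV1. ERF5 had the highest TUA1 values of the lines, 8.02 and 7.90, against 7.63 and 7.77 in WT control (0.26 ± 0.20, limma adjusted p = 0.778). DEAR1 had TUB1 values of 5.93 and 6.28, against 6.75 and 6.81 in WT control (-0.68 ± 0.38, limma adjusted p = 0.63). RAV1 was the line closest to WT control in TUB9, at 8.81 and 8.91, against 8.69 and 9.01.

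Across all 14 groups the genes differed in how much their level varied. A moderated F test over the 14 groups passed for TUB9 (limma adjusted p = 1.81e-05), TUA1 (0.000632) and TUB5 (0.00125), and did not pass for TUB7 (0.0669), TUB1 (0.105), TUA6 (0.137) and TUB6 (0.262), while 77.2% of all probe sets passed. Among the 11 lines alone the same 3 genes passed, where 58.6% of all probe sets did, and without the CRF3 arrays all 7 passed among the other 10 lines, where 69.3% did. The range of the group means was 2.48 in TUB9 and 2.28 in TUB5, and 0.72 in TUA6 and 0.77 in TUB6. Only 8.8% of probe sets tested had a range as small as that of TUA6 or smaller, and 11.2% for TUB6. The genes thus ran from 2 with a wide range to 2 that were among the steadier probe sets of these arrays.

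In the order of its group means TUB9 ran from WT cold (10.60) through CZF1 (9.29) and WT warm (9.01) to HSFC1 (8.33), ZF (8.30) and CRF3 (8.12). WT cold, CZF1 and WT warm were each separated from the next group with no overlap of arrays, and all other neighbours overlapped. TUB5 followed with WT cold (10.35), CZF1 (9.53) and WT warm (9.27) at the top and CRF3 (8.35) and HSFC1 (8.08) at the bottom. For TUA1 the order began with WT cold (8.05), ERF5 (7.96) and WT control (7.70) and ended with CZF1 (7.04) and CRF3 (6.62), and the 10 groups from MYB44 (7.41) to CZF1 each overlapped with their neighbour. For TUB1 every group overlapped with its neighbour from ZF (6.85) and WT control (6.78) down to MYB44 (5.71) and CRF3 (5.54). TUA6 ran from ZF (11.67) to CRF3 (10.96), with DEAR1 and MYB44 as the one pair of neighbours that did not overlap. TUB6 was highest in WT control (10.24) and lowest in CRF3 (9.47), and TUB7 highest in WT warm (9.78) and lowest in CRF3 (8.74).

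Over the 14 group means the levels of TUB5 and TUB9 were the most alike of the 21 pairs of tubulin genes, with r = 0.935. Over the 12 groups other than WT cold and CRF3 it was 0.838, and over the 10 groups that also leave out WT warm and CZF1 it was 0.673, below the 0.751 of TUA6 and TUB7 there. TUA6 and TUB1 had r = 0.717 and TUA6 and TUA1 had r = -0.11. These are descriptions of groups that share arrays' normalization and, in part, an overall level.

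Among the other 8737 probe sets of 1 gene, the pattern of TUB1 over the 14 groups was most like that of GH9C2 (r = 0.829), an endoglucanase gene, AT2G29660 (r = 0.812) and accD (r = 0.801), the chloroplast-encoded subunit of acetyl-CoA carboxylase. Without CRF3 these were 0.767, 0.691 and 0.715. GH9C2 had group means of 7.03 in CRF3, 7.11 in DEAR1 and 7.34 in MYB44, its 3 lowest groups, against 8.38 in WT control. The genes named here were picked by r over these same means, so likeness in single groups follows from the choice. How high the best r would be without any relation was not tested. TUB1 itself did not pass the F test over the 14 groups (limma adjusted p = 0.105), and it read 6.52 and 4.56 in CRF3. The pattern of TUA1 was most like that of AT1G19450 (r = 0.867), a gene of the sugar transporter family, AT5G16730 (r = 0.858) and AT1G03350 (r = 0.85).

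Other genes of the cytoskeleton were taken from lists of tubulin folding, microtubule nucleation, microtubule-associated proteins, kinesins, actins and primary wall cellulose synthesis. Of these, 12 genes were named on the array and 11 were tested, ACT12 being too low. In the cold 1 rose and 2 fell, a share of the 11 close to the 27.2% of all probe sets that passed. POR, a tubulin-folding cofactor gene, read 5.19 and 5.07 in WT cold, against 4.31 and 4.46 in WT warm (0.75 ± 0.17, limma adjusted p = 0.00236). The kinesin genes AT2G28620 and AT3G45850, of the family that slides spindle microtubules apart, fell by 1.05 ± 0.32 and 0.92 ± 0.30 (limma adjusted p = 0.0196 and 0.0308).

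AT2G28620 read 5.44 and 5.44 in WT cold, against 6.43 and 6.55 in WT warm. Its values in WT control were 5.46 and 5.61, so that WT cold differed from WT control by -0.10 ± 0.32 (limma adjusted p = 0.843). AT3G45850 likewise did not pass against WT control (-0.38 ± 0.30, limma adjusted p = 0.325), whereas POR was higher there too (1.23 ± 0.17, limma adjusted p = 9.33e-06). That comparison crosses the 2 sets of groups with unlike array medians, a shift that raises rises and lessens falls. WT warm itself stood above WT control by 0.48 ± 0.17 in POR, 0.96 ± 0.32 in AT2G28620 and 0.54 ± 0.30 in AT3G45850 (limma adjusted p = 0.0325, 0.0287 and 0.176). The median change of the 11 genes in the cold was -0.13.

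In the lines ACT11, an actin gene, was lower in CRF3 (-2.15 ± 0.39), HSFC1 (-1.66 ± 0.39) and CZF1 (-1.20 ± 0.39), with limma adjusted p = 0.00774, 0.00786 and 0.0234. It read 7.40 and 5.35 in CRF3 and 7.08 and 6.66 in HSFC1, against 8.61 and 8.44 in WT control. Of all probe sets 8.6% passed in CRF3, 11.8% in HSFC1 and 36.3% in CZF1. WT control had the highest ACT11 mean of the 14 groups, so every line was lower by mean. WT warm differed from WT control by -0.78 ± 0.39 in ACT11 (limma adjusted p = 0.126). Against WT warm, ACT11 in CZF1 differed by -0.415 ± 0.39 and did not pass (limma adjusted p = 0.819). SPR1, a microtubule-associated protein needed for straight growth of cells, was higher in ZF (0.66 ± 0.15, limma adjusted p = 0.0136) and CZF1 (0.62 ± 0.15, limma adjusted p = 0.00527), in CZF1 beside a median shift of 0.43, and WT warm stood 0.62 above WT control in SPR1 as well. AT5G17410, a subunit of the gamma-tubulin complex that nucleates microtubules, was lower in ZAT10 (-0.96 ± 0.21, limma adjusted p = 0.0126). PFI, TON1B, KINESIN-12B, KINESIN-13A and COB passed neither between WT cold and WT warm nor in any line. ACT11 differed by -0.90 ± 0.39 between WT cold and WT warm (limma adjusted p = 0.0968) and was lower in WT cold than in WT control (-1.68 ± 0.39, limma adjusted p = 0.00165), where 47% of all probe sets passed.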

How the data were processed

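RNA from above-ground seedling tissue was labelled with biotin after amplification, per the labels' protocols. The authors deposited log2 signals, and these were used as they stand. The submitters' processing notes list GCRMA and limma with no version; how arrays were centred on each other is unknown here. Of 22810 probe sets, 64 array controls were left out. The platform annotation names 1 gene for 13513, several for 503 and none for 8730, and 13436 of the first matched a locus of the RefSeq gene table. All 7 tubulin genes passed the filter of log2 over 4 in at least 2 of 28 arrays, which kept 15916 probe sets.

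Group means of all arrays were fitted with limma 3.58.1 in R 4.3.3 (lmFit, eBayes, 14 residual degrees of freedom), tested on simulated data, with Benjamini-Hochberg adjustment within each comparison and the F tests adjusted over all probe sets. Arrays have no read depth, and their number limits the precision. Tubulin genes and lists were chosen with earlier results of these data known. All tubulin genes are named, with list members past the threshold, and for TUB1 and TUA1 the 3 genes of highest r. ATKDSA2, caught by a kinesin name prefix, was left out as no kinesin. Beyond the rule, ACT12, LHCB4.2, STZ and the marker genes were named after values were seen. Samples with the same replicate number did not deviate together (correlation -0.02 for WT cold with WT warm and -0.05 to 0.09 for lines with WT control), so the numbers were not taken as pairs.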

Additional observations from a re-analysis of the deposited data

Results flagged for a closer look

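For 3 tubulin genes the 11 lines differed from each other, by a moderated F test in the fit of all arrays. These were TUA1 (limma adjusted p = 0.00551), with means from 7.96 in ERF5 to 6.62 in CRF3, TUB9 (limma adjusted p = 0.0184), from 9.29 in CZF1 to 8.12 in CRF3, and TUB5 (limma adjusted p = 0.0432), from 9.53 in CZF1 to 8.08 in HSFC1. In all 58.6% of probe sets passed this test, so 3 of 7 is no higher than the background. No WT mean is compared in this test, but the WT arrays enter its pooled spread. With only the arrays of the 11 lines in the fit, 2 tubulin genes passed. CZF1, the highest line in TUB9 and TUB5, had array medians of 5.83 and 5.84, against 5.33 to 5.48 in the other lines. After quantile normalization 1 tubulin gene passed the F test among the 11 lines. In CRF3 the 2 arrays of TUB9 read 8.62 and 7.61. Without the CRF3 arrays all 7 tubulin genes passed the F test, and 69.3% of all probe sets did.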

How the results depend on the processing

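In the cold the count of 3 tubulin genes was 1 to 3 with 1 array left out and 2 at a 2-fold threshold, and 3 in the others tried. TUB9 passed in all 13 (1.49 to 1.75, adjusted p up to 0.0056), TUB5 and TUA1 in 10 each. For the 11 lines the count of 3 pairs became 5 after quantile normalization, 11 without the CRF3 arrays and 10 against WT warm, and 0 to 18 with 1 array left out, 18 being without CRF3 replicate 1 and 11 without CRF3 replicate 2. It was 0 without either WT control array and 1 without CZF1 replicate 1. Between WT warm and WT control the count of 0 became 1 after quantile normalization and 2 with only the groups compared. Among the 11 lines the count of 3 became 1 after quantile normalization, 7 without the CRF3 arrays, and 1 to 7 with 1 array left out, 1 being without either CZF1 array. For CZF1 against WT warm it was 0 in all alternatives. With the replicate block the counts were 3 in the cold, 3 in the lines and 2 among the lines. With only the arrays of the 11 lines in the fit the count among the lines was also 2. Leaving out CRF3 lowers the within-group SD of 6 of the 7 genes (TUA1 had 0.187 without and 0.186 with those arrays), and the cause of the other changes was not tested. None of the 6 changes called with all arrays changed sign in its alternatives, while TUB9 in CZF1, called without the CRF3 arrays, was -0.07 after quantile normalization. Fits without CRF3 and 1 further array were added after seeing the data.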
